A study of Mus musculus with 48 samples.

Results

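The transcripts described here are 10 messenger RNAs encoded by the mitochondrial genome of the mouse. They were chosen by name and not by a cut on measured values, although earlier results of these data were known. They are mt-Nd1, mt-Nd2, mt-Nd4, mt-Nd5 and mt-Nd6 (subunits of complex I, the NADH dehydrogenase), mt-Cytb (complex III), mt-Co1, mt-Co2 and mt-Co3 (complex IV, cytochrome c oxidase) and mt-Atp6 (the ATP synthase). All 10 were found among the 23862 genes of the series. Of these, 7 were listed in all 48 libraries, whereas mt-Co2, mt-Co3 and mt-Atp6 were listed in 24, all of them libraries of total RNA or of the membrane fraction.

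Mouse embryonic stem cells (mESCs) of the line E14TG2a, kept in 2i medium with LIF, received 1 µM flavopiridol, a drug that keeps paused RNA polymerase II from moving into the gene body by blocking its activating kinase. Independently passaged cultures were harvested and separated into a cytosolic fraction released by digitonin, a membrane fraction released by NP-40 and a nuclear pellet, and part of each extract was kept as total RNA. Polyadenylated RNA was sequenced at 30, 60, 120 and 240 min in 3 replicates, giving 48 libraries in 16 groups of fraction and time. All libraries carry the drug, and the untreated state enters only as the 0 min level by which each value was divided, so a ratio of 1 is the level at 0 min in the same fraction. Ratios therefore follow each fraction over time and do not compare amounts between fractions. The last time is 240 min in the titles and 180 min in the protocol text. Of 8 marker genes of embryonic stem cells, 6 were listed in all 48 libraries. None of 5 fibroblast markers and none of 5 markers of differentiated lineages were listed in all, although 4 and 5 of them were listed in some. A ratio gives no level, so the markers say only that these transcripts were detected.

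The mitochondrial genome is transcribed inside the organelle by its own polymerase, Polrmt, and not by RNA polymerase II. Long transcripts from both strands are cut, largely at the tRNAs that lie between the genes, and most of the released mRNAs receive a short poly(A) tail from the mitochondrial poly(A) polymerase Mtpap, under the care of the RNA-binding proteins Lrpprc and Slirp. The mRNAs are translated on mitochondrial ribosomes and stay in the organelle. Their place in a cell fraction is thus the place of the mitochondria or of what leaks from them. In its labeling samples the paper reports slight carry-over of mitochondria into the nuclear fraction, measured on transcripts of mitochondrial DNA. The part of such carry-over in the nuclear values of these mRNAs was not tested. The factors that make, process and degrade these mRNAs are nuclear-encoded and depend on RNA polymerase II.

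The libraries were made from polyadenylated RNA, and in several members the tail also completes the stop codon. The last bases of 6 members are shown for this reason, with the encoded stop codon or the part of it that the gene holds in capitals. They were read 5′ to 3′ along the mRNA from GENCODE transcripts on GRCm38.
mt-Nd1: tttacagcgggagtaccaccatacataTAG
mt-Nd4: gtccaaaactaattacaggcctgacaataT
mt-Co3: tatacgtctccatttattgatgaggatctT
mt-Cytb: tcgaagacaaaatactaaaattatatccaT
mt-Nd5: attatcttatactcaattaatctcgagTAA
mt-Nd6: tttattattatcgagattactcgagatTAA
mt-Nd4, mt-Co3 and mt-Cytb each end 1 base past their last codon, on a T, and added A residues turn it into a stop. The stretches lie at chrM:3678-3707 (mt-Nd1), chrM:11515-11544 (mt-Nd4), chrM:9361-9390 (mt-Co3), chrM:15259-15288 (mt-Cytb), chrM:13536-13565 (mt-Nd5) and chrM:13552-13581 (mt-Nd6). mt-Nd6 is on the minus strand and all the other members are on the plus strand. The ends of mt-Nd5 and mt-Nd6 overlap by 14 bases on opposite strands. The kit marks strand, but whether counting used it is not stated for these files, so mt-Nd6 reads and RNA antisense to it cannot be told apart here.

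The genes run along chrM in the order mt-Nd1 (2751 to 3707), mt-Nd2 (3914 to 4951), mt-Co1 (5328 to 6872), mt-Co2 (7013 to 7696), mt-Atp6 (7927 to 8607), mt-Co3 (8607 to 9390), mt-Nd4 (10167 to 11544), mt-Nd5 (11742 to 13565), mt-Nd6 (13552 to 14070) and mt-Cytb (14145 to 15288). Each is annotated as a single exon that ends with its stop codon or with the start of it. Some also have near-identical copies in nuclear chromosomes, which bear on how reads were assigned. A stretch of chromosome 1 holds Gm28437, Gm10925 and Gm28661, which are 100% identical to mt-Co3 over 783 of 784 bases, to mt-Atp6 over 678 of 681 and to mt-Co2 over 681 of 684. On the same stretch, Gm28439 is identical to mt-Nd4 over 876 of 1378 bases, and Gm29216 is 99.8% identical to mt-Co1 over 483 of 1545. The values of mt-Co2, mt-Co3 and mt-Atp6 are therefore uncertain, since their reads cannot be assigned by sequence, and they are described apart from the other 7.

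Several libraries stood apart in the members. In the nucleus, the 7 members lay between 2.06 and 4.56 in replicate 1 at 120 min, against 0.916 to 1.64 in replicates 2 and 3. In the cytosol, all 3 libraries at 60 min lay above those at every other time, and replicate 3 at 240 min (0.738 to 0.895) lay above replicates 1 and 2 (0.382 to 0.532). The median gene of these libraries did not stand apart in the same way (log2 -0.92 in the nuclear library, against -0.98 and -1.10, and -1.12 in the cytosolic library, against -1.04 and -1.05). Nuclear replicate 1 at 30 min had a low median gene (-0.76, against -0.08 and -0.28). Results that rest on these libraries are given with and without them.

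The 7 members took a different course in each fraction. The counts of values given here run over 7 members in the 12 libraries of a fraction. Members moved together over the libraries, so values from the same library are not independent. Each value was also divided by a 0 min level, whose spread cannot be seen here. All 84 values of the membrane fraction were above 1. The lowest, median and highest were 1.06, 1.24 and 1.41 at 30 min, 1.24, 1.41 and 1.61 at 60 min, 1.60, 1.90 and 2.53 at 120 min, and 1.52, 1.81 and 2.54 at 240 min. Of the cytosolic values 65 of 84 were below 1, with medians of 0.603 at 30 min, 1.09 at 60 min, 0.546 at 120 min and 0.479 at 240 min. The nuclear medians were 1.12, 1.38, 1.41 and 0.813 in order of time, and 18 of the 21 nuclear values at 240 min were below 1. In total RNA the medians were 1.04, 1.02, 1.20 and 1.29, and all 21 values at 240 min were above 1. In these bulk samples fewer cells with a transcript and less of it per cell cannot be told apart.

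**Figure D1:**
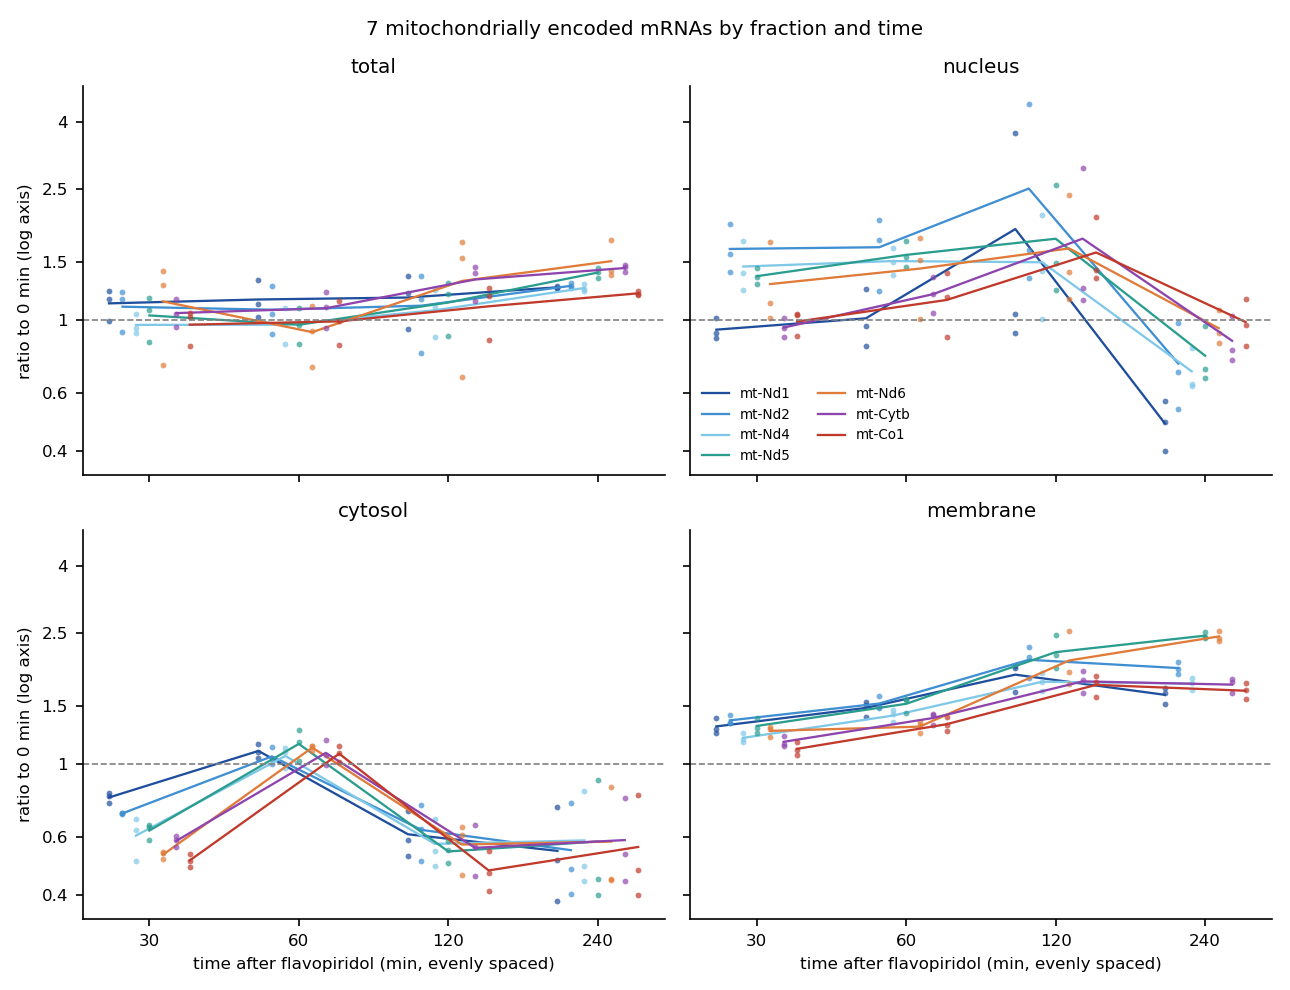
Ratio to 0 min (log axis) of the 7 members listed in all libraries against time after flavopiridol, in total RNA and 3 fractions. Points are replicates and lines join the means of 3 replicates. Values in the membrane fraction rise from 1.06 to 1.41 at 30 min to 1.52 to 2.54 at 240 min, cytosolic values peak at 60 min (0.974 to 1.27), and nuclear values fall to 0.399 to 1.16 at 240 min.

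Change over time was tested with limma as the slope of log2 ratios against time in hours, over the 12 libraries of a fraction, with p-values adjusted over all genes listed in all 12. A slope of 1 is a doubling per hour. Most genes fell after the block, with a median slope of -0.22 over 12762 genes in total RNA, -0.30 over 13343 nuclear genes, -0.28 over 11979 cytosolic genes and -0.26 over 12408 in membrane RNA. The median slope of the 7 members was 0.11 (total), -0.26 (nucleus), -0.13 (cytosol) and 0.15 (membrane).

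Of the 10 members 9 rose in the membrane fraction, where 4.09% of all genes tested rose and 62.2% fell. They were the 7 listed in all libraries except mt-Nd1, together with mt-Co2, mt-Co3 and mt-Atp6, whose values are uncertain. The steepest of the 7 were mt-Nd6 at 0.29 ± 0.05 log2 per h (SE, adjusted p = 0.000227) and mt-Nd5 at 0.26 ± 0.05 (adjusted p = 0.000505). mt-Nd1 had a slope of 0.08 ± 0.05 (adjusted p = 0.149). The count depends on the replicates included, with 4 members rising without replicate 1 and 5 without replicate 2.

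In total RNA 3 members rose, mt-Nd4, mt-Nd5 and mt-Cytb, where 3.39% of all genes rose and 56.9% fell. Without replicate 3 only 1 of them passed. With replicate number as a block mt-Co1 and mt-Nd6 rose too. In the nucleus 3 of the 7 fell, mt-Nd2, mt-Nd4 and mt-Nd5, against 61.9% of all genes that fell and 3.32% that rose. Without nuclear replicate 1 at 30 min the same number fell. Without nuclear replicate 1 at 120 min 4 fell, with mt-Nd1 added at -0.30 ± 0.06 (adjusted p = 0.000953), and without all libraries of replicate 2 or of replicate 3 only 1 did. In the cytosol mt-Nd1 and mt-Nd2 fell, 2 of 7, against 67.1% of all genes that fell and 2.95% that rose. Without the libraries of replicate 1 or of replicate 2 no cytosolic member passed, although all 7 slopes stayed below 0 (mt-Nd1 at -0.17, adjusted p = 0.142, and -0.23, adjusted p = 0.0601), and leaving out replicate 3 at 240 min gave 3, with mt-Nd5 added.

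**Figure D2:**
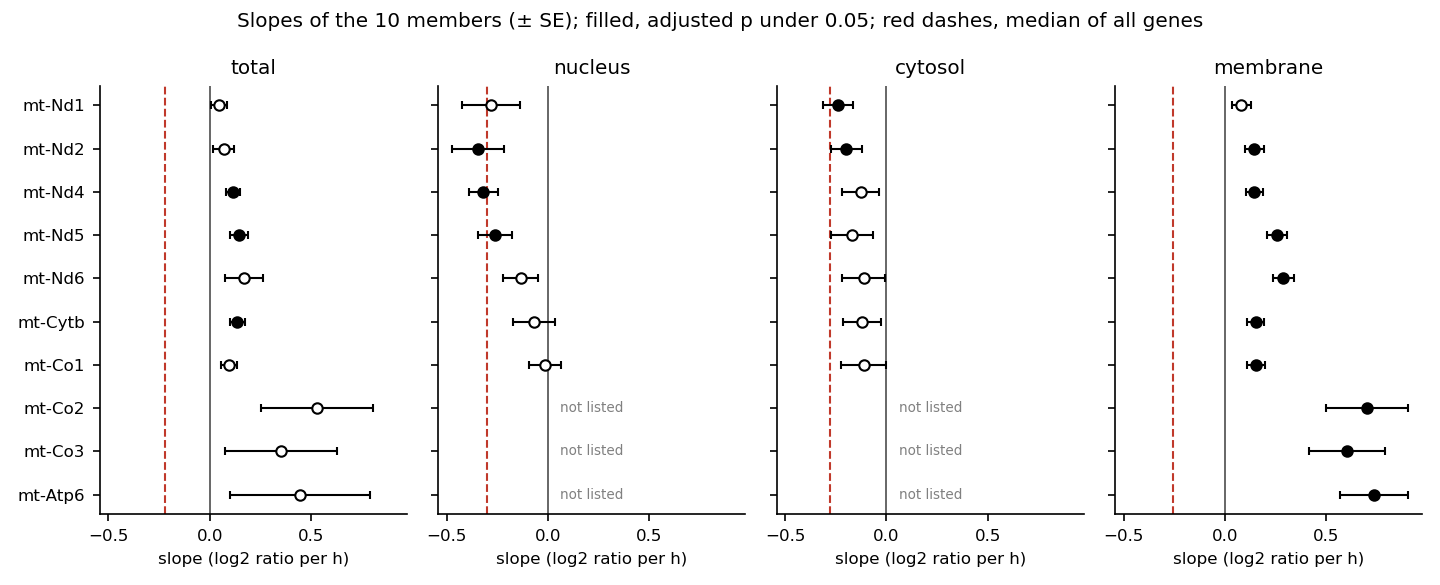
Slope of log2 ratio against time (log2 per h, bars are ± SE over 12 libraries) of the 10 members in each fraction. Filled points passed an adjusted p of 0.05, the grey line is 0 and the red dashes mark the median gene (-0.22, -0.30, -0.28 and -0.26 from left to right). Points in the membrane fraction lie right of 0, and those of the nucleus and cytosol lie left of it on the deposited scale, most of which would lie right of 0 if centred on the median gene.

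Of the complex I subunits, mt-Nd5 and mt-Nd6 rose most in the membrane fraction. mt-Nd5 encodes a large subunit of the proton-pumping arm. Its membrane ratios were 1.38, 1.29 and 1.24 in replicates 1 to 3 at 30 min, 1.57, 1.43 and 1.57 at 60 min, 2.14, 1.95 and 2.47 at 120 min, and 2.43, 2.53 and 2.41 at 240 min. The values of the last pair of times lay above those of the earlier times with no overlap. In total RNA it stood at 1.03 ± 0.16 (SD, n = 3) at 30 min and 1.40 ± 0.05 at 240 min and rose by 0.14 ± 0.04 log2 per h (SE, adjusted p = 0.0126). In the nucleus its means were 1.36 ± 0.08 at 30 min, 1.58 ± 0.15 at 60 min, 1.77 ± 0.71 at 120 min and 0.779 ± 0.158 at 240 min (SD, n = 3). The mean was thus lower than at 30 min only at the last time. Its nuclear slope was -0.26 ± 0.08 (SE, adjusted p = 0.0144). In the cytosol the slope was -0.17 (adjusted p = 0.158).

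mt-Nd6 is the only member transcribed from the other strand, and its mRNA is known to lack a poly(A) tail in human cells. Its membrane ratios were 1.29, 1.21 and 1.27 at 30 min, 1.31, 1.24 and 1.34 at 60 min, 1.91, 1.75 and 2.53 at 120 min, and 2.36, 2.42 and 2.54 at 240 min. The 30 and 60 min values overlapped, and all later values lay above them. In total RNA its replicates spread more than those of the other complex I members, with 0.672, 1.54 and 1.73 at 120 min, and its slope of 0.17 ± 0.09 did not pass the test (adjusted p = 0.132). Its nuclear slope of -0.14 ± 0.09 did not pass either (adjusted p = 0.189). Mean nuclear ratios were 1.29 ± 0.38 at 30 min, 1.44 ± 0.39 at 60 min, 1.65 ± 0.66 at 120 min and 0.945 ± 0.114 at 240 min (SD, n = 3).

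mt-Nd1, mt-Nd2 and mt-Nd4 encode further membrane-arm subunits. mt-Nd1 in the membrane fraction was 1.38, 1.28 and 1.25 at 30 min, 1.96, 1.65 and 1.99 at 120 min, and 1.64, 1.70 and 1.52 at 240 min. Its 240 min values lay above those at 30 min and overlapped those at 120 min. mt-Nd2 in the membrane fraction went from 1.36 ± 0.05 (SD, n = 3) at 30 min to 2.07 ± 0.22 at 120 min and 1.96 ± 0.08 at 240 min, with a slope of 0.15 ± 0.05 (SE, adjusted p = 0.0181). mt-Nd4 went from 1.20 ± 0.04 to 1.78 ± 0.12 and 1.76 ± 0.07 at the same times, with a slope of 0.14 ± 0.04 (adjusted p = 0.00783).

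In the nucleus mt-Nd1 had the lowest mean of any member at 240 min, with 0.566, 0.492 and 0.399 in replicates 1 to 3, after 3.71, 1.05 and 0.916 at 120 min. All 3 values at 240 min lay below every earlier nuclear value of this gene. With all libraries its slope was -0.28 ± 0.14 (SE, adjusted p = 0.0974). mt-Nd2 in the nucleus was 1.96, 1.59 and 1.40 at 30 min, 4.56, 1.64 and 1.35 at 120 min, and 0.981, 0.696 and 0.536 at 240 min. It fell by 0.34 ± 0.13 log2 per h (adjusted p = 0.0312), and by 0.36 ± 0.07 without replicate 1 at 120 min (adjusted p = 0.000910). With 180 min as the last time, as in the protocol text, its slope was -0.40 ± 0.19 (adjusted p = 0.0852). mt-Nd4 in the nucleus was 1.74, 1.24 and 1.39 at 30 min, 1.38, 1.51 and 1.65 at 60 min, 2.08, 1.41 and 1.01 at 120 min, and 0.824, 0.640 and 0.632 at 240 min. Its values up to 120 min overlapped, and the fitted fall was 0.32 ± 0.07 log2 per h (adjusted p = 0.00169). Centred on the median gene, the nuclear slopes were 0.033 for mt-Nd1 (adjusted p = 0.862), -0.029 for mt-Nd2 (adjusted p = 0.868) and -0.0045 for mt-Nd4 (adjusted p = 0.967).

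In the cytosol mt-Nd1 was 0.815, 0.759 and 0.797 at 30 min, 1.09, 1.15 and 1.04 at 60 min, 0.718, 0.589 and 0.526 at 120 min, and 0.382, 0.512 and 0.738 at 240 min. Only the 60 min values exceeded 1, and the 120 and 240 min values overlapped. Its slope was -0.24 ± 0.07 (SE, adjusted p = 0.0110) and -0.17 ± 0.06 without the 60 min libraries (adjusted p = 0.0453). mt-Nd2 in the cytosol went from 0.707 ± 0.002 (SD, n = 3) at 30 min to 1.05 ± 0.06 at 60 min, 0.630 ± 0.122 at 120 min and 0.546 ± 0.188 at 240 min. Its fall of 0.20 ± 0.08 log2 per h (SE, adjusted p = 0.0330) was -0.12 without the 60 min libraries (adjusted p = 0.128). mt-Nd4 had a cytosolic slope of -0.13 (adjusted p = 0.231) and rose in total RNA, from 0.968 ± 0.068 (SD, n = 3) at 30 min to 1.25 ± 0.03 at 240 min, by 0.11 ± 0.04 log2 per h (SE, adjusted p = 0.0139).

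mt-Cytb, the only mitochondrially encoded subunit of complex III, rose in total RNA and in membrane RNA. Its total RNA ratios were 0.951, 1.16 and 1.04 at 30 min, 0.947, 1.09 and 1.22 at 60 min, 1.14, 1.39 and 1.45 at 120 min, and 1.47, 1.45 and 1.41 at 240 min. The 240 min values lay above all those at 30 and 60 min. The slope was 0.14 ± 0.04 (SE, adjusted p = 0.00796). Its membrane ratio went from 1.17 ± 0.04 (SD, n = 3) at 30 min to 1.74 ± 0.09 at 240 min, with a slope of 0.15 ± 0.04 (adjusted p = 0.00789). Its slopes of -0.07 ± 0.10 in the nucleus (adjusted p = 0.568) and -0.12 in the cytosol (adjusted p = 0.275) did not pass the test.

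mt-Co1, the catalytic subunit of complex IV, had the nuclear slope nearest 0. In the nucleus it was 1.03, 1.04 and 0.893 at 30 min, 2.06, 1.42 and 1.34 at 120 min, and 1.16, 0.966 and 0.835 at 240 min. The 30 and 240 min values overlapped and the 120 min values lay above both, and the slope was -0.016 ± 0.08 (SE, adjusted p = 0.867). Its membrane ratios were 1.17, 1.11 and 1.06 at 30 min, 1.77, 1.60 and 1.85 at 120 min, and 1.67, 1.76 and 1.58 at 240 min, and rose by 0.15 ± 0.05 log2 per h (adjusted p = 0.00877). Its total RNA slope of 0.10 ± 0.04 did not pass the test (adjusted p = 0.0640). The cytosolic values had the lowest mean of any member at 30 min (0.508 ± 0.023, SD, n = 3), with 1.07 ± 0.06 at 60 min and 0.474 ± 0.067 at 120 min.

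mt-Co2 and mt-Co3 encode the other mitochondrial subunits of complex IV, and mt-Atp6 a subunit of the proton channel of the ATP synthase. Their replicates differed far more than those of the other members, by up to 19-fold, 13-fold and 21.7-fold within a time point of total RNA, against at most 2.58-fold for the 7. mt-Co2 in total RNA was 1.13, 1.04 and 1.06 at 30 min, 0.132, 2.51 and 2.48 at 60 min, 0.691, 4.70 and 6.19 at 120 min, and 2.99, 3.23 and 3.83 at 240 min. mt-Atp6 in total RNA reached 0.458, 7.84 and 9.96 at 120 min and 5.86, 6.28 and 8.15 at 240 min. Replicate 1 was the lowest of the 3 at 60 and 120 min in each of these genes, and none of the 3 passed the test in total RNA.

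The same 3 genes started below 1 in the membrane fraction, with values from 0.144 to 0.636 at 30 min, and ended between 1.94 and 2.84 at 240 min. mt-Co2 was 0.587, 0.144 and 0.394 at 30 min and 2.84, 2.52 and 2.05 at 240 min, with no overlap. mt-Atp6 was 0.362, 0.267 and 0.298 at 30 min and 2.76, 2.55 and 2.32 at 240 min. The slopes were 0.70 ± 0.20 for mt-Co2 (SE, adjusted p = 0.00784), 0.60 ± 0.19 for mt-Co3 (adjusted p = 0.0124) and 0.74 ± 0.17 for mt-Atp6 (adjusted p = 0.00189). At 60 and 120 min replicate 3 was the lowest of the 3 in each gene, with 0.352, 0.440 and 0.438 for mt-Co2, mt-Co3 and mt-Atp6 at 60 min.

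The copies of these 3 genes on chromosome 1 were Gm28661 (chr1:24614885-24615565), Gm28437 (chr1:24613189-24613971) and Gm10925 (chr1:24613974-24614651), on the minus strand. They too were listed in no nuclear and no cytosolic library. Membrane ratios of Gm28661 were 1.49, 0.0977 and 0.0960 at 30 min and 1.13, 0.888 and 0.710 at 240 min, so that its replicates at 30 min spanned the values at 240 min. Gm10925 was 0.349, 0.114 and 0.449 at 30 min and 1.91, 1.86 and 0.997 at 240 min, and it rose by 0.60 ± 0.18 log2 per h (SE, adjusted p = 0.00890). The slopes of Gm28661 (0.38 ± 0.25, adjusted p = 0.191) and Gm28437 (0.32 ± 0.28, adjusted p = 0.330) did not pass. Gm28439, the partial copy of mt-Nd4, had a membrane slope of 0.09 (adjusted p = 0.670) and was likewise listed in no nuclear or cytosolic library, whereas mt-Nd4 itself, which extends beyond this copy, was listed in all 48.

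Copies that differ from their member at some bases can be told apart in part. Gm13340 (chr2:22588103-22589647) is 97.6% identical to all 1545 bases of mt-Co1 and had slopes of 0.0014 for total RNA (adjusted p = 0.987), -0.04 for the nucleus (adjusted p = 0.764) and 0.10 for membrane RNA (adjusted p = 0.157). Gm13341 (chr2:22587291-22587962), 95.9% identical to mt-Co2, had 1.41, 1.04 and 0.577 at 30 min and 1.95, 1.79 and 1.37 at 240 min in the membrane fraction and rose by 0.23 ± 0.09 log2 per h (SE, adjusted p = 0.0318). It also rose in total RNA, by 0.20 ± 0.07 (adjusted p = 0.0279). Gm29216, the copy of the end of mt-Co1, rose in total RNA by 0.25 ± 0.09 (adjusted p = 0.0372), with a membrane slope of -0.01 (adjusted p = 0.925). Gm4076 (chr13:85126550-85127514), 95.2% identical to mt-Nd5 over 954 bases, was listed in 9 membrane libraries and in no other, with 0.911, 0.307 and 1.03 at 240 min. The part that shared reads play in the values of the members was not tested.

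**Figure D3:**
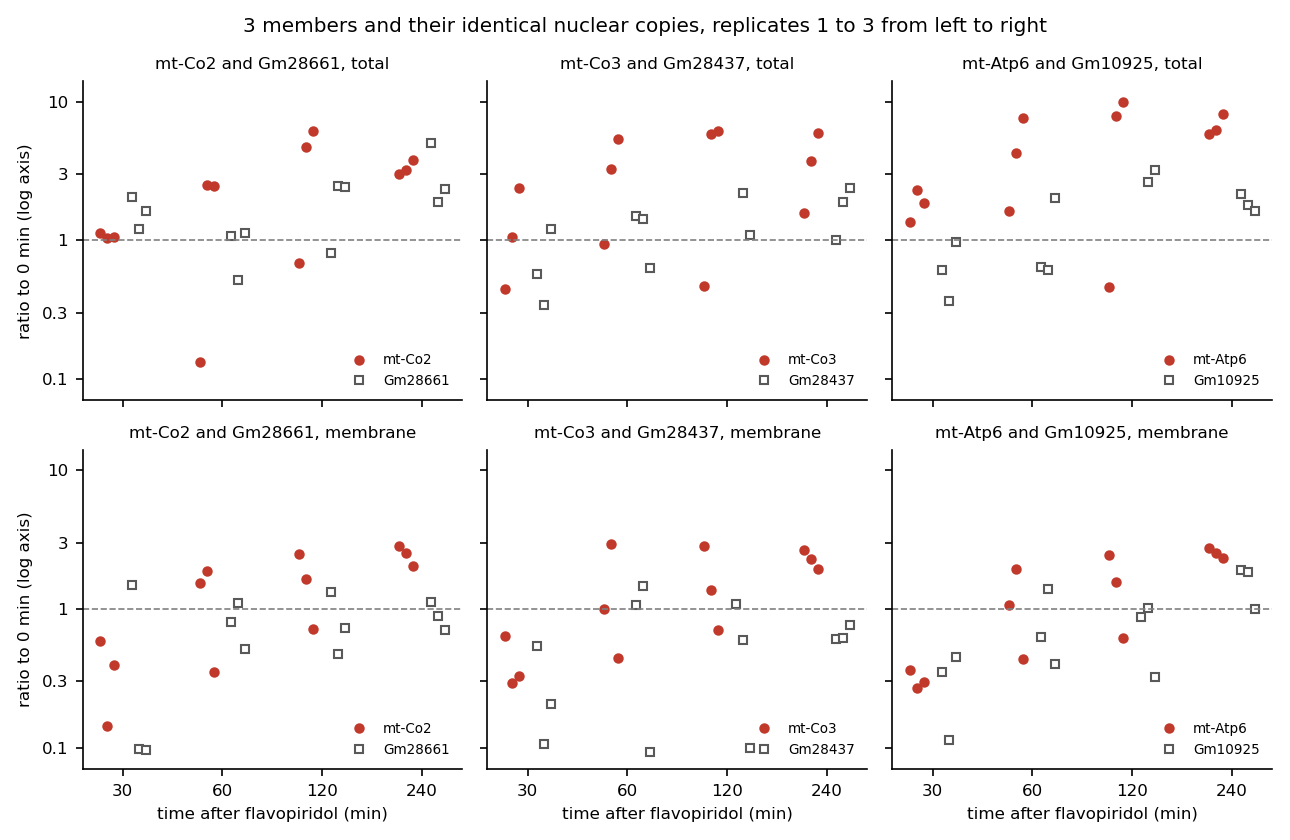
Ratio to 0 min (log axis) of mt-Co2, mt-Co3 and mt-Atp6 (red) and of their nuclear copies Gm28661, Gm28437 and Gm10925 (open squares) in total RNA and in the membrane fraction, with replicates 1 to 3 from left to right at each time. Replicates of a time point lie up to 21.7-fold apart in total RNA, and the 3 members move from 0.144 to 0.636 at 30 min to 1.94 to 2.84 at 240 min in the membrane fraction.

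Differences between fractions were tested as the interaction of time with fraction over 24 libraries, for the 7 members only. The question was whether the slope of a member differed between the fractions as prepared. Between membrane and cytosol 4 of 7 had a higher slope in the membrane fraction, where 4.94% of 11086 genes were higher and 1.76% lower. These were mt-Nd5 (0.43 ± 0.11 log2 per h, SE, adjusted p = 0.0228), mt-Nd6 (0.40 ± 0.12, adjusted p = 0.0425), mt-Nd2 (0.35 ± 0.09, adjusted p = 0.0189) and mt-Nd1 (0.32 ± 0.09, adjusted p = 0.0257). All fractions of a replicate at a given time came from the same extract, and with this harvest as a block mt-Nd6 no longer passed (adjusted p = 0.0759). mt-Nd4, mt-Cytb and mt-Co1 had differences of 0.27 each, with adjusted p of 0.115, 0.130 and 0.225. All 7 differences were above 0 and between 0.27 and 0.43. Without the cytosolic 60 min libraries 2 remained called, mt-Nd2 and mt-Nd5, without cytosolic replicate 3 at 240 min 5 were called, with mt-Nd4 added, and without all libraries of replicate 1 or of replicate 2 none was.

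Between nucleus and membrane 4 of 7 had a lower slope in the nucleus, where 6.16% of 11643 genes were lower and 2.19% higher. They were mt-Nd5 (-0.52 ± 0.10, SE, adjusted p = 0.00239), mt-Nd2 (-0.49 ± 0.14, adjusted p = 0.0366), mt-Nd4 (-0.46 ± 0.09, adjusted p = 0.00158) and mt-Nd6 (-0.42 ± 0.10, adjusted p = 0.0135). mt-Nd1 (-0.36, adjusted p = 0.156), mt-Cytb (-0.22, adjusted p = 0.246) and mt-Co1 (-0.17, adjusted p = 0.277) did not pass. Without nuclear replicate 1 at 120 min mt-Nd1 (-0.38 ± 0.07, adjusted p = 0.00320) and mt-Cytb (-0.23 ± 0.07, adjusted p = 0.0445) passed too. Without nuclear replicate 1 at 30 min the count was again 4, with 180 min as the last time mt-Nd2 no longer passed (-0.63 ± 0.21, adjusted p = 0.0552), and without all libraries of replicate 2 or of replicate 3 none of the 7 did.

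Between nucleus and cytosol no member passed the test, with 0 of 7 at an unadjusted p under 0.05, where 8.3% of 11232 genes were lower in the nucleus and 12.3% higher. The differences ran from -0.19 for mt-Nd4 (95% interval -0.44 to 0.05) to 0.10 for mt-Co1 (-0.19 to 0.38), so differences of that size in either direction are within the intervals. Their median was -0.04, with 5 of 7 below 0. It was -0.15 without the cytosolic 60 min libraries, with all 7 below 0, none past the test and 1 at an unadjusted p under 0.05, and 0.03 without cytosolic replicate 3 at 240 min, with 2 of 7 below 0.

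The deposited values rest on genes with known half-lives above 14 h, which were used to scale each library, and most other genes fell relative to them. Relative to the median gene of the same library, the slopes of the 7 members were higher in each fraction, though 2 of the 7 nuclear slopes stayed below 0. Their mean log2 ratio in the membrane fraction lay 0.42 ± 0.04 above the median gene at 30 min, 0.89 ± 0.06 at 60 min, 1.64 ± 0.11 at 120 min and 2.02 ± 0.13 at 240 min (SD, n = 3). In total RNA it lay 0.28 ± 0.15 above at 30 min and 1.46 ± 0.09 at 240 min, and in the nucleus 0.63 ± 0.49 and 1.13 ± 0.17. In the cytosol it lay below the median gene at 30 min (-0.61 ± 0.10), above it at 60 min (0.34 ± 0.16), below it at 120 min (-0.28 ± 0.18) and at 0.19 ± 0.54 at 240 min, where replicate 3 was at 0.81 and the others at -0.23 and -0.0077. Once the median gene of every library was set to 0, all 10 members rose in the membrane fraction (28.3% of all genes rose) and 8 of 10 in total RNA (28.8%). On this scale no member fell in the nucleus (29.2% of all genes fell) or in the cytosol (32.4%). None rose in the cytosol (29.4% of all genes rose), and mt-Co1 alone rose in the nucleus (29.6%), at 0.30 ± 0.09 log2 per h (SE, adjusted p = 0.0121). The slope was then higher in membrane than cytosol for 2 of 7 (4.22% of all genes) and lower in nucleus than membrane for 4 of 7 (7.42%).

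**Figure D4:**
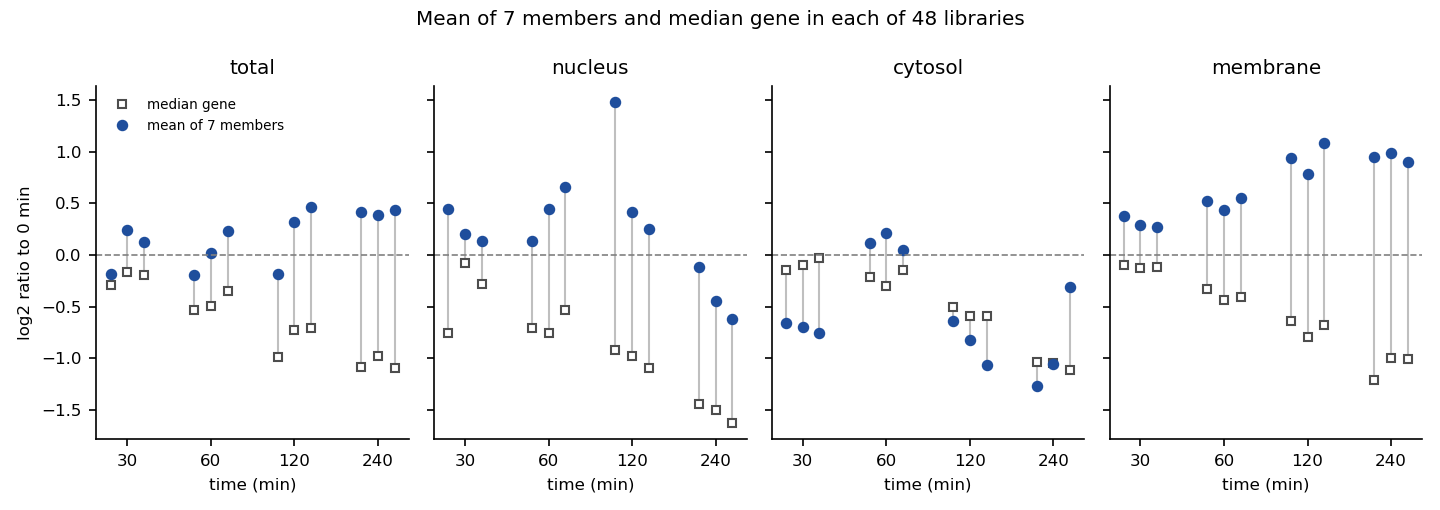
Log2 ratio to 0 min in each of the 48 libraries: mean of the 7 members (blue circles) and median over genes (open squares), joined by a line for the same library, with replicates 1 to 3 from left to right. The distance grows with time in the membrane fraction to 2.02 at 240 min, and in the cytosol the members lie below the median gene at 30 and 120 min and above it at 60 min.

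The mean of the 7 members was ranked in each library among the single genes listed in all 12 libraries of the fraction. It lay between the 87.7th and the 98.6th percentile in the membrane libraries. The percentiles were 62.7 to 96.7 in total RNA, 69.5 to 98.7 in the nucleus and 7.54 to 91.4 in the cytosol. The 7 members moved together over the 48 libraries, with Pearson correlations of the log2 ratio between 0.793 and 0.975 (median 0.911 over 21 pairs). These libraries share fractions, times and scaling, so the correlations are a description.

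Within the set, composition shifted. Relative to the mean of the 7 in the same library, mt-Nd5 in the membrane fraction stood at 0.07 ± 0.02 log2 at 30 min and 0.35 ± 0.02 at 240 min, and mt-Nd6 at 0.02 ± 0.05 and 0.34 ± 0.09 (SD, n = 3). mt-Nd1 went the other way, from 0.07 ± 0.02 to -0.25 ± 0.04. Tested on this scale, mt-Nd6 rose by 0.11 ± 0.04 log2 per h (SE, adjusted p = 0.0270) and mt-Nd1 fell by 0.09 ± 0.04 (adjusted p = 0.0289), whereas mt-Nd5 was at 0.08 ± 0.04 (adjusted p = 0.0777). mt-Co2, mt-Co3 and mt-Atp6 rose on this scale too, where 0.669% of all genes rose and 80.9% fell. A slope on this scale is a change relative to the other members and shows unequal change only. None of the members passed with limma on this scale in total RNA (1.13% of all genes rose and 71.4% fell), nucleus (4.73% and 20.7%) or cytosol (2.73% and 27.6%), with 0 of those tested at an unadjusted p under 0.05 in each. In the nucleus mt-Nd1 stood lowest at 240 min (-0.66 ± 0.07) and mt-Co1 highest (0.37 ± 0.03), and at 30 min mt-Nd2 was highest (0.45 ± 0.09). mt-Co1 had a higher slope in the nucleus than in the membrane fraction on this scale, by 0.21 ± 0.08 (SE, adjusted p = 0.0423), where 51.3% of all genes were higher and 0.318% lower. No member was higher in membrane than cytosol (0.0451% of all genes). This scale holds the mean of the 7 at 0 by construction, so that absence of calls is no result about the members.

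**Figure D5:**
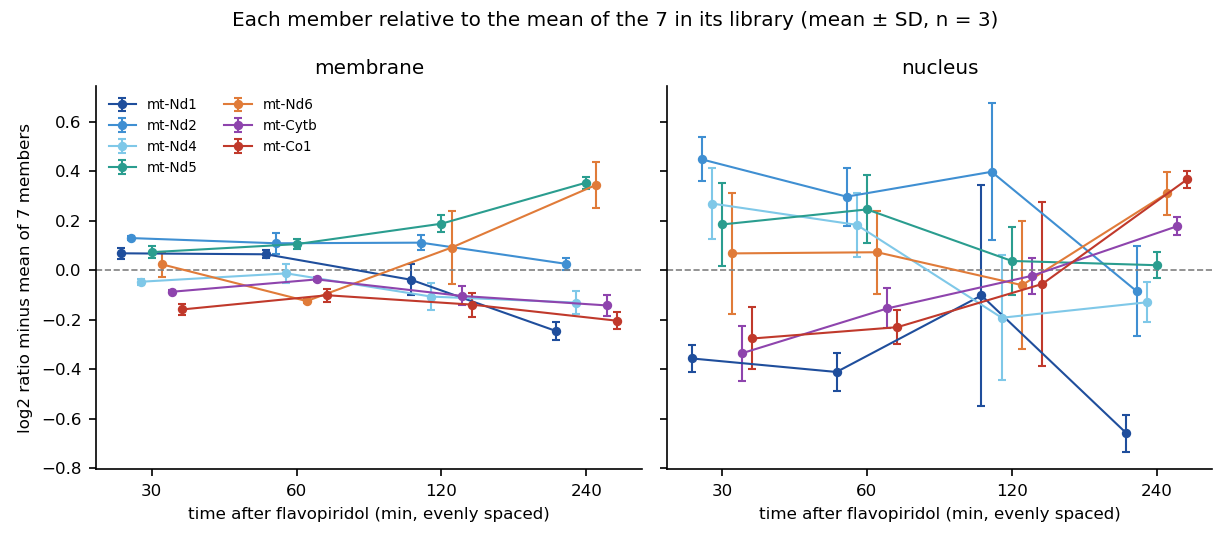
Log2 ratio of each of the 7 members minus the mean of the 7 in the same library, against time, in the membrane fraction and the nucleus (mean ± SD, n = 3). At 240 min in membrane RNA mt-Nd5 and mt-Nd6 lie upward at 0.35 and 0.34 and mt-Nd1 downward at -0.25, and in the nucleus mt-Nd1 reaches -0.66.

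The other mitochondrial transcripts in the files were the ribosomal RNAs mt-Rnr1 and mt-Rnr2 and the short mRNAs mt-Nd3, mt-Nd4l and mt-Atp8. The ribosomal RNAs passed the test in no fraction, with slopes of 0.12 and 0.15 in total RNA, -0.18 for both in the nucleus, -0.10 for both in the cytosol, and 0.08 and 0.02 in the membrane fraction. Relative to the median gene both rose in total RNA, cytosol and membrane, where 28.8%, 29.4% and 28.3% of all genes rose. mt-Rnr2 in the membrane fraction was 1.34, 1.24 and 1.13 at 30 min and 1.42, 1.25 and 1.33 at 240 min, and these overlapped. mt-Rnr1 was 1.21, 1.01 and 0.963 at 30 min and 1.41, 1.31 and 1.22 at 240 min, without overlap. In the cytosol at 30 min the 7 members lay between 0.486 and 0.815. There mt-Rnr2 lay above that range, at 0.852, 1.01 and 0.889, and mt-Rnr1 lay partly within it, at 0.695, 0.828 and 0.733. mt-Atp8, whose end overlaps the start of mt-Atp6, was listed in membrane libraries only, at 0.589, 0.579 and 0.285 at 30 min and 5.02, 1.32 and 1.26 at 240 min, and rose by 0.52 ± 0.18 log2 per h (SE, adjusted p = 0.0230). mt-Nd3 was listed in total RNA alone and mt-Nd4l in total RNA and the membrane fraction, each with missing libraries, so neither was tested.

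The nuclear-encoded genes that transcribe, process, polyadenylate and degrade mitochondrial RNA fell almost throughout. In total RNA 24 of 27 fell and none rose, with a median slope of -0.43, against -0.22 over all genes, of which 56.9% fell and 3.39% rose. Nuclear RNA showed 24 of 27 falling (median -0.49), cytosolic RNA 25 of 25 (-0.46) and membrane RNA 26 of 27 (-0.51), where 61.9%, 67.1% and 62.2% of all genes fell. Relative to the median gene 19 fell and 2 rose in total RNA (31% and 28.8% of all genes). The steepest falls in total RNA were Tefm, the mitochondrial transcription elongation factor (-1.30 ± 0.11 log2 per h, SE, adjusted p = 4.5e-07), Trmt10c, a subunit of the mitochondrial RNase P (-1.28 ± 0.16, adjusted p = 1.95e-05), and Fastkd5, an RNA processing factor (-1.16 ± 0.12, adjusted p = 2.35e-06). The 3 that did not pass in total RNA were named after their values were seen. They were Polrmt (-0.31 ± 0.20, adjusted p = 0.196), Lrpprc (0.05 ± 0.03, adjusted p = 0.160) and Rexo2, an oligoribonuclease (-0.05 ± 0.04, adjusted p = 0.242). Polrmt did fall in the nucleus (-0.58 ± 0.17, adjusted p = 0.00979) and in the membrane fraction (-0.58 ± 0.13, adjusted p = 0.00180). Rexo2 fell in cytosolic and membrane RNA, and Lrpprc in the cytosol only (-0.08 ± 0.03, adjusted p = 0.0370). Mtpap fell by 0.43 ± 0.06 in total RNA (adjusted p = 2.34e-05) and Slirp by 0.28 ± 0.04 (adjusted p = 3.81e-05), also chosen afterwards. mRNA slopes say nothing of the amounts of these proteins.

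The nuclear-encoded subunits of the respiratory chain and ATP synthase, partners of the members in the same complexes, were flatter. In total RNA 9 of 58 fell and 1 rose, with a median slope of -0.0098, and 48 did not pass, where 56.9% of all genes fell and 3.39% rose. Of the nuclear values 14 of 55 fell (median -0.07), of the cytosolic 13 of 59 fell and 5 rose (-0.04), and 13 of 55 fell in membrane RNA (-0.05). Over all genes 61.9%, 67.1% and 62.2% fell in these fractions, and 2.95% rose in the cytosol. The direction of this list turned relative to the median gene, with 47 rising and 1 falling in total RNA (28.8% and 31% of all genes). The steepest of the falling genes in total RNA were Ndufv3 (-0.61 ± 0.04, SE, adjusted p = 1.62e-07) and Ndufa9 (-0.48 ± 0.19, adjusted p = 0.0394), both of complex I, and Atp5j of the ATP synthase (-0.22 ± 0.09, adjusted p = 0.0481). Cox7c of complex IV rose in total RNA (0.11 ± 0.04, adjusted p = 0.0461) and in the cytosol (0.25 ± 0.05, adjusted p = 0.00127), and it fell in the nucleus (-0.25 ± 0.08, adjusted p = 0.0182). Its nuclear minus its cytosolic slope was -0.50 ± 0.10 (adjusted p = 0.00115). The other 4 that rose in the cytosol, named after their values were seen, were Cox5a, Cox7a2, Ndufa1 and Uqcrh, with slopes of 0.08 to 0.11. None of the 55 nuclear-encoded subunits rose in the membrane fraction on the deposited scale, which is near the 4.09% of all genes that rose. Of the 10 members 9 rose there. These 9 included mt-Co2, mt-Co3 and mt-Atp6, whose values are uncertain. Relative to the median gene 45 of the 55 subunits rose there (28.3% of all genes).

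Mitochondrially encoded genes apart, 5 of the 10694 genes listed in all 48 libraries had log2 ratios most like the mean of the 7 members. They were Usmg5 (Pearson r = 0.781 over 48 libraries), Ndufaf2 (0.761), Atp6ap2 (0.753), Ifitm2 (0.747) and B2m (0.745). Usmg5 is a small subunit of the ATP synthase, Ndufaf2 an assembly factor of complex I, Atp6ap2 an accessory protein of the vacuolar ATPase, Ifitm2 a membrane protein of antiviral defence and B2m the light chain of MHC class I. At 240 min their mean ratios in the membrane fraction were 1.24, 1.18, 1.59, 0.971 and 1.40, and in the cytosol 0.758, 0.471, 0.728, 0.675 and 0.584. The membrane value was above the cytosolic value in each of these genes, which were chosen for this likeness.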

How the data were processed

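The data comprise 48 poly(A)-selected libraries. The labels and the methods of the study state that reads were aligned to mm10 with STAR 2.7.6 and quantified with RSEM 1.3.3. The deposited values are ratios: the authors scaled each library on genes with half-lives above 14 h and divided by the 0 min level. Genes at 0 are not listed, and depth is unknown, so no counting interval is given. The scaling sets the direction of slow changes, and RSEM divides reads shared by identical genes.

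Of 23862 gene IDs, 23786 matched a symbol. Log2 ratios without a pseudocount were tested for genes present in each of the 12 libraries of the fraction. The moderated test of limma 3.58.1 (R 4.3.3) was run two-sided, with a trend in eBayes and Benjamini-Hochberg adjustment over all genes at a threshold of 0.05. A slope on time in h was fitted for each fraction, and its interaction with fraction for each pair of fractions over 24 libraries. P-values of the slopes rest on the residual around a straight line of log2 ratio on time. It holds the spread between independently passaged cultures and also any departure of the time course from that line. Each culture gave all 4 fractions at a time. The last time was taken as 240 min. Methods were tested on simulated data.

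Copies were found with blastn 2.17.0 against GENCODE transcripts on GRCm38, a later release than the study's (identity at least 95% over at least 300 bases), and at most 8 with a value were described. Named from the lists were the 3 steepest falls and rises in total RNA past that threshold whose sign was the same in all replicate series. From other genes, the 5 most correlated with the mean of the 7 members were named. Members and lists were chosen with earlier results of these data known. Of the lists, 29 of 31 RNA machinery genes and 67 of 71 respiratory chain genes were found. Alternatives covered a pseudocount of 0.1, the listing filter, library scaling, blocks of replicate and harvest, the limma trend, a last time of 180 min, a contrast of 240 against 30 min, and replicates or libraries left out.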

Additional observations from a re-analysis of the deposited data

Results flagged for a closer look

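The slope of 8 member and fraction pairs differed between fractions by the interaction test, with limma and adjustment over all genes. Between membrane and cytosol the differences (membrane minus cytosol) were 0.32 log2 per h for mt-Nd1, 0.35 for mt-Nd2, 0.43 for mt-Nd5 and 0.40 for mt-Nd6. Between nucleus and membrane (nucleus minus membrane) they were -0.49 for mt-Nd2, -0.46 for mt-Nd4, -0.52 for mt-Nd5 and -0.42 for mt-Nd6. Each fraction was scaled by the authors to its own 0 min level, so these are differences in time course. None between membrane and cytosol passed without all libraries of replicate 1 or of replicate 2. None between nucleus and membrane passed without those of replicate 2 or of replicate 3. With harvest as a block mt-Nd6 did not pass between membrane and cytosol.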

How the results depend on the processing

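Library scaling and leaving out a replicate moved more calls than the other choices. Centred on the median gene, members rising numbered 8 in total RNA (3 as deposited) and 1 in the nucleus (0), those falling 0 in nucleus (3) and 0 in cytosol (2), and those higher in membrane than cytosol 2 (4). Slopes called in at least 1 of the fits that turned were 0.30 for mt-Co1 and 0.0524 for mt-Nd5 in the nucleus and 0.0423 for mt-Nd1 and 0.0821 for mt-Nd2 in the cytosol. Scaled to the mean of the 7 members, those rising numbered 0 in total RNA and 4 in membrane (9), those falling 0 in nucleus, 0 in cytosol and 1 in membrane (0), those higher in membrane than cytosol 0, and those lower and higher in nucleus than membrane 0 (4) and 1 (0). Of slopes called in at least 1 of the fits, those that turned there were -0.0941, -0.0286, -0.0201, -0.0301 and -0.0227 for mt-Nd1, mt-Nd2, mt-Co1, mt-Nd4 and mt-Cytb in membrane, -0.0097 for mt-Nd1 between membrane and cytosol, and 0.21 for mt-Co1 between nucleus and membrane. By construction this scaling holds the members' mean at 0, and it leaves the differences among them. Uncalled slopes changed sign under both scalings too.

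Leaving out each replicate number in turn gave 1 to 2 rising members in total RNA, 1 to 4 falling in the nucleus, 0 to 3 falling in the cytosol, 4 to 7 rising in membrane, 0 to 3 higher in membrane than cytosol and 0 to 5 lower in nucleus than membrane. With 180 min as the last time mt-Nd2 lost its call in the nucleus and between nucleus and membrane, leaving 2 and 3 members called, and the median membrane slope of the 7 was 0.24 in place of 0.15. The 240 against 30 min contrast gave 1 member falling in the cytosol and 1 lower in nucleus than cytosol (0 as reported). Without the cytosolic 60 min libraries, an alternative chosen after seeing the data, 1 fell in the cytosol and 2 were higher in membrane than cytosol. The libraries left out at nuclear 120 min and cytosolic 240 min were also chosen after seeing the data. The cause of these changes was not tested.

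Correlations of same-numbered deviations between times were -0.06 to 0.19, with 3 of 18 above 0.1 in total RNA and none in other fractions. The main test therefore did not pair samples by replicate number. In total RNA, however, replicate 1 had the lowest mean log2 ratio of the members listed in all libraries at 30, 60 and 120 min. It was -0.18, -0.20 and -0.19, against 0.02 to 0.46 in replicates 2 and 3. At 240 min it was 0.41, against 0.38 and 0.44. The main test did not account for this difference between replicates. Same-harvest libraries of different fractions, which share an extract, correlated at -0.09 to 0.21, and that block changed no call between fractions other than mt-Nd6 between membrane and cytosol. With the replicate block, 5 members rose in total RNA, with mt-Co1 (adjusted p = 0.0266) and mt-Nd6 (0.0352) added, and 1 fell in the cytosol, without mt-Nd2 (0.0527). Of the slopes of single members and pairs of fractions, over all alternatives, 610 kept their call or stayed uncalled, 71 lost and 18 gained a call and 11 called slopes turned. The fits without trend changed no call. Ratios of genes with few reads cannot be told from those with many, since depth is unknown.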
